A study of Mus musculus with 12 samples.

Results

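The genes described here are the splicing factors and heterogeneous nuclear ribonucleoproteins (hnRNPs) of the array, in mouse embryonic stem (ES) cells after 3 days in retinoic acid and in undifferentiated ES cells. They were picked by gene name, and the names were set with earlier results of these data known. The names cover the hnRNP, SR protein, SF3 and Prpf families, both U2AF subunits, the SR-related matrix proteins Srrm1 and Srrm2, and 13 tissue-regulated RNA-binding regulators (Ptbp1, Ptbp2, Mbnl1, Mbnl2, Mbnl3, Rbfox1, Rbfox2, Celf1, Celf2, Nova1, Khdrbs1, Khdrbs3 and Qk). The names take in 159 of 41174 probes, which belong to 70 genes, 51 of them with more than 1 probe and 19 with 1. The array's names are old in part: Hnrpdl, Hnrpll and Sfrs18 are now Hnrnpdl, Hnrnpll and Pnisr.

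The study followed acetylation of histone H4 lysine 16 as ES cells differentiate, and the arrays give total RNA levels. There were 3 biological samples of ES cells differentiated for 3 days in retinoic acid and 3 of undifferentiated ES cells, each on 2 technical arrays with Cy3 as the only dye, so 12 arrays in all. No genotype, strain, transgene, cell line or feeder layer is named in the labels, and beyond the word biological nothing says how the replicates were grown. The p-values therefore measure the spread between these samples.

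Splicing removes introns from pre-mRNA in the spliceosome, which is built anew on each intron. U2AF binds the 3' end of the intron, SF3a and SF3b are parts of the U2 particle that then binds the branch point, and the Prpf proteins carry the U4/U6.U5 particle in and rebuild the complex for catalysis. SR proteins mostly promote the use of nearby exons and hnRNPs often oppose it, while the tissue-regulated factors (MBNL, CELF, NOVA, RBFOX, PTB, quaking and the STAR proteins) decide which alternative exons a given cell type includes. MBNL proteins are known to oppose the splicing pattern of ES cells, and Ptbp1 to hold back neuronal exons in cells that are not neurons.

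Promoters in the RefSeq table (assembly GRCm38.p6, 250 bases before to 50 bases after the start) were matched by symbol for 59 of the 70 genes, in 83 windows. They held a median of 27 CG pairs in 300 bases against 7 over all 32851 windows, and 88.0% of them held at least 10 CG pairs against 43.5% of all windows. The half-site of retinoic acid receptors, spelled AGGTCA, or as the variant GGGTCA, or as a further variant AGTTCA, or as a last variant GGTTCA, and searched on both strands, stood in 25 of the 83 windows (30.1%) and in 43.7% of all windows. A direct repeat of the half-site with 5 bases between stood in 0 of the 83 windows and in 0.0974% of all windows. Of the genes that passed the test below, 8 had entries, in 14 windows, and 3 of these windows held a half-site: 2 of the 5 windows of Celf2 and the 1 window of Srsf12. The promoters shown are of 3 genes that were higher after retinoic acid and 1 that was lower, each a gene with a single window, with every CG in capitals. They run over chr14:120275419-120275718 on the + strand (Mbnl2), chr12:46818718-46819017 on the - strand (Nova1), chr4:33209022-33209321 on the + strand (Srsf12) and chr17:80207256-80207555 on the - strand (Srsf7), and hold 10, 14, 26 and 28 CG pairs in that order.
Mbnl2: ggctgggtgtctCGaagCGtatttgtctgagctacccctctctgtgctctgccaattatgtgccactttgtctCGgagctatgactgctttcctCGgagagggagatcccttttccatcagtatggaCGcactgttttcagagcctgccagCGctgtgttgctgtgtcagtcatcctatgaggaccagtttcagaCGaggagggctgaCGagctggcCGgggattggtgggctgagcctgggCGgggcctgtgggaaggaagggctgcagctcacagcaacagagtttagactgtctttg
Nova1: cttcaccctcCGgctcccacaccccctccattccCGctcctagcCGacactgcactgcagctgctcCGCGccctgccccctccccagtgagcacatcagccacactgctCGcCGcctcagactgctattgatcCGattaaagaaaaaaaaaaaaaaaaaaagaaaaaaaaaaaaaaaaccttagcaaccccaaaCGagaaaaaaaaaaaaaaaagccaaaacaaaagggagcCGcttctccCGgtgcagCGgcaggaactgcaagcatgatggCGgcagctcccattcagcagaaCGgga
Srsf12: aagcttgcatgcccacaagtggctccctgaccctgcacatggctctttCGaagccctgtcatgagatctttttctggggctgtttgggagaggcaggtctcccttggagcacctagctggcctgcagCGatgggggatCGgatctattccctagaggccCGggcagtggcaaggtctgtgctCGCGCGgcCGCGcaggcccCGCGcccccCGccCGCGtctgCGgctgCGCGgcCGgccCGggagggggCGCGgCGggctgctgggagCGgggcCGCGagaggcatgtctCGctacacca
Srsf7: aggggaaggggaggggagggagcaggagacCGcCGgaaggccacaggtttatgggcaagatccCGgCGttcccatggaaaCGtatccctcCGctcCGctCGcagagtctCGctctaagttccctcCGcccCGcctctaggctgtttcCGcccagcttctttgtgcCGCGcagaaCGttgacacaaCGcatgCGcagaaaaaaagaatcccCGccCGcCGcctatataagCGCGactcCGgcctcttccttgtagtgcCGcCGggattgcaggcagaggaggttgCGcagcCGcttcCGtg
The GGGTCA of Srsf12 lies on the opposite strand, at position -223 from the start. These letter matches describe the windows, and no binding was measured here.

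Levels below are log2 of the quantile-normalized intensity plus 50, so differences of dim genes are understated. Of the 159 probes, 147 were above background often enough to be tested. A gene is counted by its probe of highest mean level. By that probe 68 of the 70 genes were tested, and 64 were above background on all 12 arrays. Hnrnpul2 was above background on 0 of the 12 arrays by that probe, and Rbfox1, a neuronal and muscle splicing regulator, on 1 array of each group. Neither was tested.

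Most of these genes did not pass the test. At an adjusted p under 0.05, 7 of 68 genes were higher after 3 days in retinoic acid and 2 were lower, a called share of 13.2%. Leaving out retinoic acid replicate 1 or retinoic acid replicate 3 gave 4 higher and 0 lower by limma (9 higher in both cases, and 5 and 2 lower, at an unadjusted p under 0.05). Over the 15325 genes tested by the same rule, 17.6% were higher, 12.3% were lower and 30.0% passed in either direction. The median log2 difference of the 68 genes was -0.03, against 0.0036 for all genes. A difference under 0.5 in size was seen for 45 of the 68 genes (66.2%) and 58.7% of all genes. At least a 2-fold difference was seen for 4 of the 68 (5.88%) and 17.2% of all genes. At an unadjusted p under 0.05 the genes numbered 13 higher and 8 lower, 21 of 68, where 42.5% of all genes passed that looser limit. The 3 retinoic acid samples all lay above the 3 undifferentiated ones for 15 genes and all below for 9, where 25.7% and 20.8% of all genes did so. Over the 147 tested probes, 12 were higher and 4 lower (10.9%), against 14.0% higher and 11.5% lower over all 26587 tested probes. The samples of the groups did not overlap for 23 probes with retinoic acid above and 18 with it below, against 21.5% and 21.0% of all tested probes, and 34 of the 147 had an unadjusted p under 0.05, against 37.8%.

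**Figure D1:**
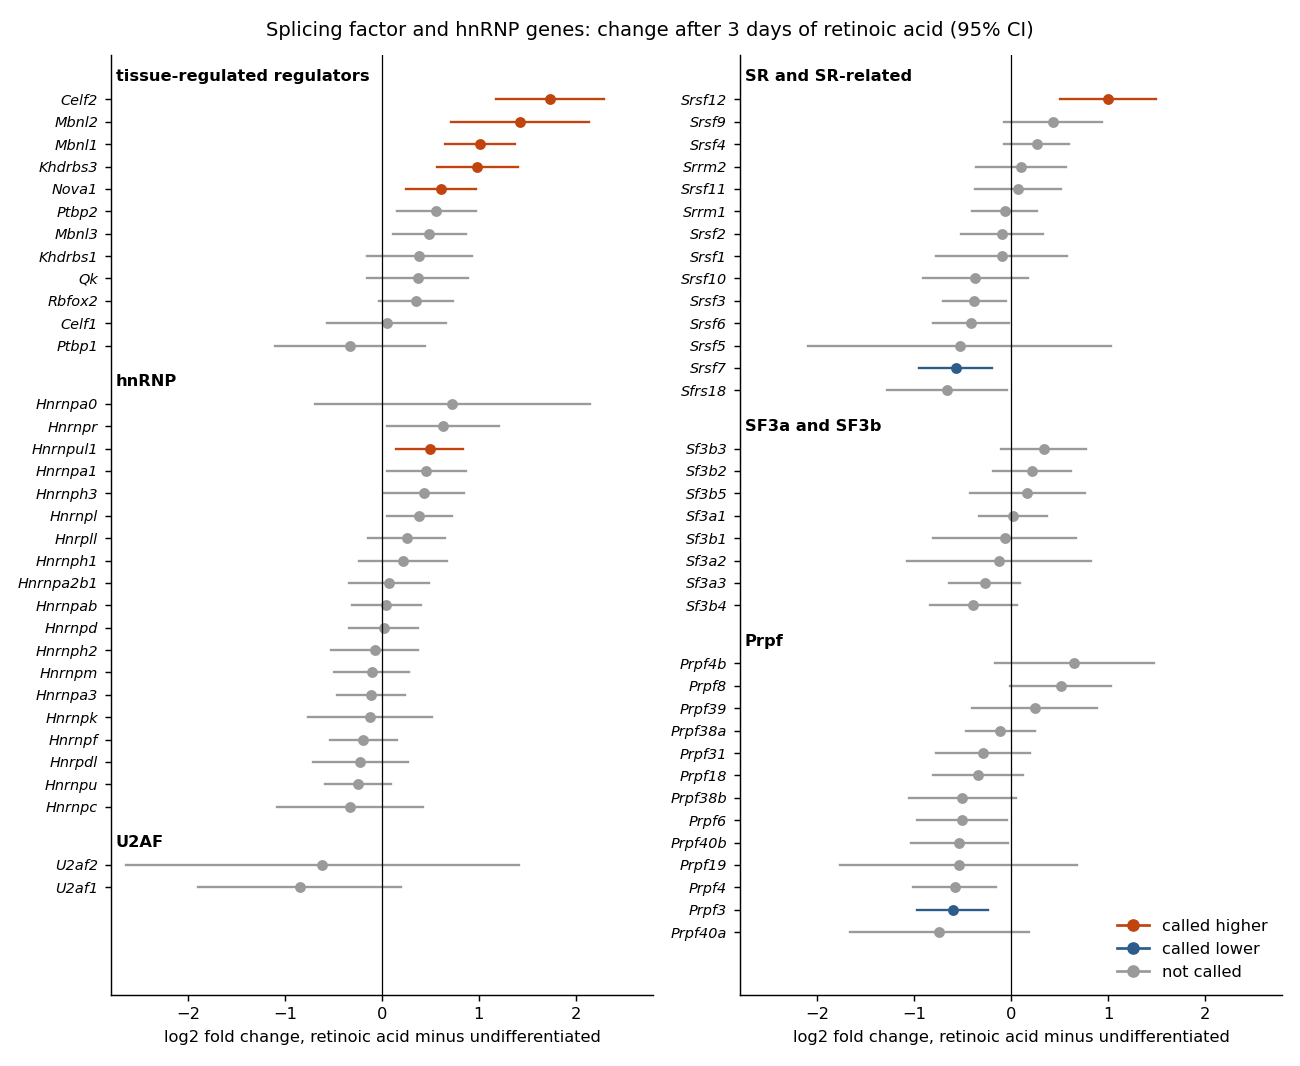
Log2 difference, retinoic acid minus undifferentiated, of each tested gene by its probe of highest mean level (horizontal axis, with 95% intervals as lines), grouped by role. Orange and blue mark genes called higher and lower at an adjusted p under 0.05, and grey the rest. Of the 9 genes that passed, 5 are tissue-regulated regulators, and the median of the Prpf genes lies at -0.50.

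Among the 12 tested tissue-regulated regulators 5 were higher and 0 lower (41.7%, where 30.0% of all genes passed in either direction). Their median was 0.53, and 11 of the 12 differences were above 0, against 7703 of 15325 over all genes. In 8 of the 12 every retinoic acid sample lay above every undifferentiated one, against 25.7% of all genes. One of these, Mbnl3, was above background often enough only in retinoic acid samples. Over the other 56 tested genes 2 were higher and 2 lower (7.14%). No test of the difference between these classes was made.

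Celf2, a CELF protein that binds GU-rich sequence and regulates exons in heart, muscle and neurons, had the largest difference. It measured 9.60, 9.92 and 9.48 in retinoic acid samples, against 7.62, 8.40 and 7.79 in undifferentiated samples. The groups lie clear of each other by more than 1 unit. The difference was 1.73 ± 0.24 (SE, 3 samples a group), a 3.32-fold higher level, with an adjusted p of 0.00185. Of its 5 other probes 2 also passed, with differences of 1.36 and 0.65, another at 0.25 did not (adjusted p = 0.356), and 1 was not tested. The probe at 0.25 was above background on 4 of 6 retinoic acid arrays and on 3 of 6 undifferentiated arrays. That probe was thus tested through the retinoic acid group alone. The probe at 0.65 lost its call without 3 of the 6 samples in turn (retinoic acid replicates 1 and 3 and undifferentiated replicate 3, adjusted p up to 0.0951). The remaining probe, called at 0.77, was above background on 6 of 6 retinoic acid arrays but on 2 of 6 undifferentiated arrays, so it entered the fit through the group where it is high and had to differ. Its close relative Celf1, which acts in mRNA decay as well as splicing, showed 0.05 ± 0.26 by its main probe. The second Celf1 probe measured 12.26, 12.25 and 12.14 in retinoic acid samples and 11.57, 11.78 and 11.84 in undifferentiated samples (difference 0.49, adjusted p = 0.0489), and the third gave -0.32. The call of that second probe was lost when any 1 of the 6 samples was left out.

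The muscleblind genes encode zinc finger proteins that bind repeats such as CUG and switch exons towards the adult pattern. Mbnl2 measured 10.37, 9.40 and 10.38 in retinoic acid samples, against 8.97, 8.30 and 8.60 in undifferentiated samples. The lowest retinoic acid sample, replicate 2, still lay above the highest undifferentiated one. The difference was 1.43 ± 0.31 (adjusted p = 0.0126), and it just missed the limit without retinoic acid replicate 1 or 3, with an adjusted p of up to 0.0547. Mbnl1 measured 8.76, 9.04 and 8.78 in retinoic acid samples and 7.76, 7.84 and 7.96 in undifferentiated samples. Those groups are narrow and far apart, and the difference of 1.01 ± 0.16 (adjusted p = 0.00302) was a 2.01-fold rise. Mbnl3, the muscleblind of placenta and young muscle, measured 6.43, 6.81 and 6.76 in retinoic acid samples and 6.21, 6.21 and 6.10 in undifferentiated samples. Its groups do not overlap, yet 0.49 ± 0.16 did not pass (adjusted p = 0.063). Its probe was above background on 6 of 6 retinoic acid arrays and on 3 of 6 undifferentiated arrays, so it was tested through the retinoic acid group alone.

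Further probes of the muscleblind genes differed among themselves. A second Mbnl2 probe was higher by 0.95 (adjusted p = 0.0165), while the third stood at 0.01. The call of the second was lost without retinoic acid replicate 2 or 3 or undifferentiated replicate 1, with an adjusted p of up to 0.0591. The second Mbnl1 probe, above background on 2 of 6 retinoic acid and 4 of 6 undifferentiated arrays, gave -0.05. Which isoforms these probes detect is not given in the files.

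Khdrbs3 (T-STAR or Slm2), a STAR family protein that binds A and U rich sequence and sets neurexin exons in brain, measured 12.42, 12.26 and 12.29 in retinoic acid samples and 11.17, 11.66 and 11.18 in undifferentiated samples. All retinoic acid samples lay higher, and the difference was 0.99 ± 0.18 (adjusted p = 0.00664). When each array was instead set to its 75th percentile, or to its median, it was 0.67 (adjusted p = 0.0546) and 0.70 (adjusted p = 0.0592). Khdrbs1 (Sam68), its widely expressed relative, showed 0.39 ± 0.23 and did not pass (adjusted p = 0.277). Its 3 tested probes gave 0.39, 0.44 and 0.38.

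Nova1, a KH domain protein known for the control of synaptic exons, measured 6.83, 7.11 and 7.05 in retinoic acid samples, against 6.37, 6.30 and 6.50 in undifferentiated samples. The groups are apart but both are low, and 5 of 6 undifferentiated arrays were above background. The difference was 0.61 ± 0.15 (adjusted p = 0.0248), and 1.18 with 1 added in place of 50. The call was lost without any 1 retinoic acid sample or without undifferentiated replicate 1 (adjusted p up to 0.106).

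Ptbp1 and Ptbp2 are the polypyrimidine tract binding proteins of most cells and of young neurons, and Ptbp1 is known to lower Ptbp2 by making it skip an exon. Ptbp1 measured 12.79, 11.56 and 12.52 in retinoic acid samples and 12.60, 12.29 and 12.98 in undifferentiated samples. The ranges overlap, and the difference of -0.33 had a 95% interval of -1.11 to 0.45 (adjusted p = 0.524). Ptbp2 measured 9.98, 10.24 and 9.74 in retinoic acid samples, against 9.46, 9.49 and 9.32 in undifferentiated samples. Those groups do not overlap, but 0.56 ± 0.18 fell just short of the limit (adjusted p = 0.0516). The adjusted p was 0.0419 when the adjustment ran over 1 probe a gene and 0.0497 without the array whose header is in doubt, and it ranged from 0.0419 to 0.188 over all alternatives run. Its other probes gave 0.37 and 0.33, and neither passed. The probe at 0.33 was above background on 6 of 6 retinoic acid arrays and on 3 of 6 undifferentiated arrays. That probe was thus tested through the retinoic acid group alone.

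Rbfox2, which binds UGCAUG and is present in ES cells, measured 9.01, 8.62 and 8.79 in retinoic acid samples and 8.34, 8.57 and 8.44 in undifferentiated samples. Every retinoic acid sample was higher at this probe, with a difference of 0.35 ± 0.16 that did not pass (adjusted p = 0.163). The second Rbfox2 probe gave 0.57 with groups that overlap, and it did not pass (adjusted p = 0.144). Qk, quaking, a regulator of smooth muscle and glial exons and of circular RNA, had probes that point both ways at 0.37, -0.20 and -0.47, none of which passed.

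**Figure D2:**
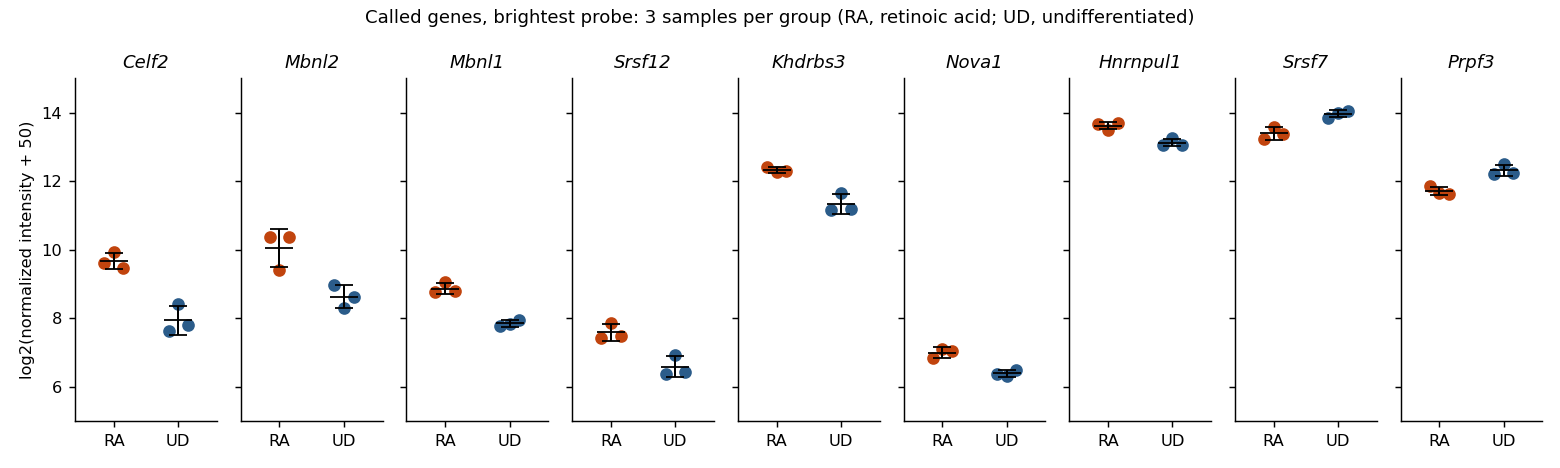
Log2 levels (intensity plus 50) of the 9 genes that passed the test, one point a sample, with retinoic acid (RA) left of undifferentiated (UD) and black bars for the mean ± SD of each group. Celf2 lies at 9.48 to 9.92 in retinoic acid samples and at 7.62 to 8.40 in undifferentiated samples. In all 9 genes the groups do not overlap, but the genes were picked by a test on these same values. Over all tested genes the retinoic acid samples all lay above for 25.7% and all below for 20.8%.

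The markers of cell types in the samples also moved. The summed intensity of feeder fibroblast markers, of which 5 of 8 tested were higher and 1 lower, was 15526 to 16342 in retinoic acid samples against 1269 to 1847 in undifferentiated samples, with Fap and Lum at levels too low to test. Of the 9 tested neuron markers 0 were higher and 5 lower, with sums of 1662 to 1881 in retinoic acid samples and 6895 to 9757 in undifferentiated samples, and Snap25 was too low to test. Neurod1 was above background on 0 of 6 retinoic acid arrays. Of the endoderm markers 6 of 10 were higher (11714 to 13033 in retinoic acid samples against 3151 to 3452 in undifferentiated samples), and of the trophoblast markers 5 of 8 were higher and 1 lower (53220 to 59800 in retinoic acid samples against 4409 to 6118 in undifferentiated samples). In bulk RNA a change in the share of a cell type and a change of RNA per cell cannot be told apart, and the part of these cells in the splicing genes was not tested. Of the pluripotency markers 7 of 8 tested were lower, and of the retinoic acid response genes 8 of 10 were higher.

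The hnRNPs are abundant proteins that coat nascent transcripts. Of 19 tested, 1 was higher and 0 lower (5.26%, where 30.0% of all genes passed in either direction). The differences ran from -0.33 to 0.73. Their median was 0.05, a sign that flips to -0.37 and -0.33 when the arrays are scaled to the 75th percentile or the median. Hnrnpul1, a protein tied to the DNA damage response and to export of RNA, measured 13.67, 13.49 and 13.69 in retinoic acid samples, against 13.06, 13.25 and 13.06 in undifferentiated samples. The gap between the groups is narrow, the difference was 0.49 ± 0.15 (adjusted p = 0.0463), and its other tested probes gave 0.10 and -0.11. The Hnrnpul1 call was lost under both other scalings and without 5 of the 6 samples in turn, where the adjusted p reached 0.171.

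Hnrnpa1, which competes with SR proteins at many exons, measured 14.44, 14.59 and 14.40 in retinoic acid samples and 14.08, 14.23 and 13.74 in undifferentiated samples. All retinoic acid samples were higher, but 0.46 ± 0.18 did not pass (adjusted p = 0.0971). Its second probe went the other way, at 11.27, 11.71 and 11.27 in retinoic acid samples against 12.08, 12.30 and 12.17 in undifferentiated samples, and fell by 0.77 (adjusted p = 0.0174). This probe was designed on a cDNA clone, and dropping retinoic acid replicate 1 or replicate 3 ended its call. Its remaining probes gave -0.06 and -0.16. Near-identical pseudogene copies of Hnrnpa1 are known, so its values are uncertain where a probe matches them.

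Some hnRNP values were set by single samples. Hnrnpa0, a minor member of the A/B group that was picked out after its values were seen, measured 8.88, 6.25 and 8.10 in retinoic acid samples and 7.55, 6.67 and 6.83 in undifferentiated samples. Retinoic acid replicate 2 is far below the other 2. The difference was 0.73 ± 0.61 (adjusted p = 0.436), and 1.47 without that sample (adjusted p = 0.0277). A second Hnrnpa0 probe gave 0.27 (adjusted p = 0.730) and did not pass without that sample either (0.77, adjusted p = 0.191). Hnrnpk, a KH domain protein that also binds DNA, and Hnrnpa3, an A/B group member, gave -0.12 and -0.11 by their main probes. The brightest probes of Hnrnpa3, Hnrnpab, Hnrnpf and Hnrnpk passed an intensity of 40000, near the brightest spots of the arrays, where a difference may be compressed.

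SR proteins bind exonic enhancers through RNA recognition motifs and recruit the spliceosome through arginine-serine repeats. Of 14 tested SR and SR-related genes 1 was higher and 1 lower (14.3%, where 30.0% of all genes passed in either direction). The median was -0.10. Srsf12, an SR protein known in human cells to oppose other SR proteins at splice sites, measured 7.41, 7.87 and 7.47 in retinoic acid samples, against 6.38, 6.94 and 6.43 in undifferentiated samples. The groups do not overlap, and 4 of 6 undifferentiated arrays were above background. The difference was 1.0 ± 0.21 (adjusted p = 0.0122), a rise that passed without any 1 sample, at an adjusted p of up to 0.0498.

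Srsf7 (9G8), which shuttles to the cytoplasm and takes part in mRNA export, measured 13.22, 13.59 and 13.39 in retinoic acid samples, against 13.85, 14.01 and 14.06 in undifferentiated samples. Every retinoic acid sample was lower, by -0.57 ± 0.16 on average (adjusted p = 0.0361). Its second probe was lower by -0.55 (adjusted p = 0.0338) and another stood at 0.06. The second probe too lost its call without 5 of the 6 samples in turn (all but undifferentiated replicate 2), with an adjusted p of up to 0.137. Leaving out any sample but retinoic acid replicate 2 ended the call of the main probe, with an adjusted p of up to 0.145. Srrm1 and Srrm2, large SR-related proteins of the exon bridging complex, gave -0.07 ± 0.14 and 0.10 ± 0.20.

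Of the core factors, 1 gene passed with quantile normalization. U2af1 and U2af2, the small and large U2AF subunits that read the AG and the pyrimidine tract of the 3' splice site, gave -0.85 and -0.62 with wide intervals of -1.90 to 0.20 and -2.65 to 1.42. U2af2 measured 9.74, 7.17 and 9.82 in retinoic acid samples and 9.82, 7.99 and 10.77 in undifferentiated samples. The second replicate is the lowest of both groups, and the technical arrays of a sample differed by at most 0.09 at this probe, so the spread lies between samples. With the replicate number as a block in the limma fit, U2af2 gave -0.62 ± 0.22 and did not pass (adjusted p = 0.0939). The 8 SF3 genes gave 0 calls and differences of -0.39 to 0.34, with a median of -0.03 and 0 below an unadjusted p of 0.05. Over all genes 30.0% were called in either direction and 42.5% had an unadjusted p under 0.05. Sf3b1, the branch point scaffold, which was picked out after its values were seen, stood at -0.07.

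The Prpf genes build and rebuild the tri-snRNP. Of 13 tested, 1 was lower and 0 higher by the test (12.3% of all genes were lower). The median was -0.50, and 10 of the 13 differences were below 0, against 7622 of 15325 over all genes. Prpf3, a U4/U6 protein whose human gene is mutated in retinitis pigmentosa, measured 11.85, 11.66 and 11.61 in retinoic acid samples, against 12.21, 12.49 and 12.23 in undifferentiated samples. The groups do not overlap and the difference was -0.60 ± 0.16 (adjusted p = 0.0274). It was lost without any 1 retinoic acid sample or undifferentiated replicate 1 (adjusted p up to 0.119). The calls of Prpf3 and Srsf7 also ended with 1 or 10 added in place of 50. Its partner Prpf4 gave -0.58 ± 0.18 and fell just short (adjusted p = 0.0526), while Prpf8, the scaffold of the catalytic centre, gave 0.51 ± 0.22 and did not pass (adjusted p = 0.139). Prpf4 and Prpf8 were picked out after their values were seen.

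**Figure D3:**
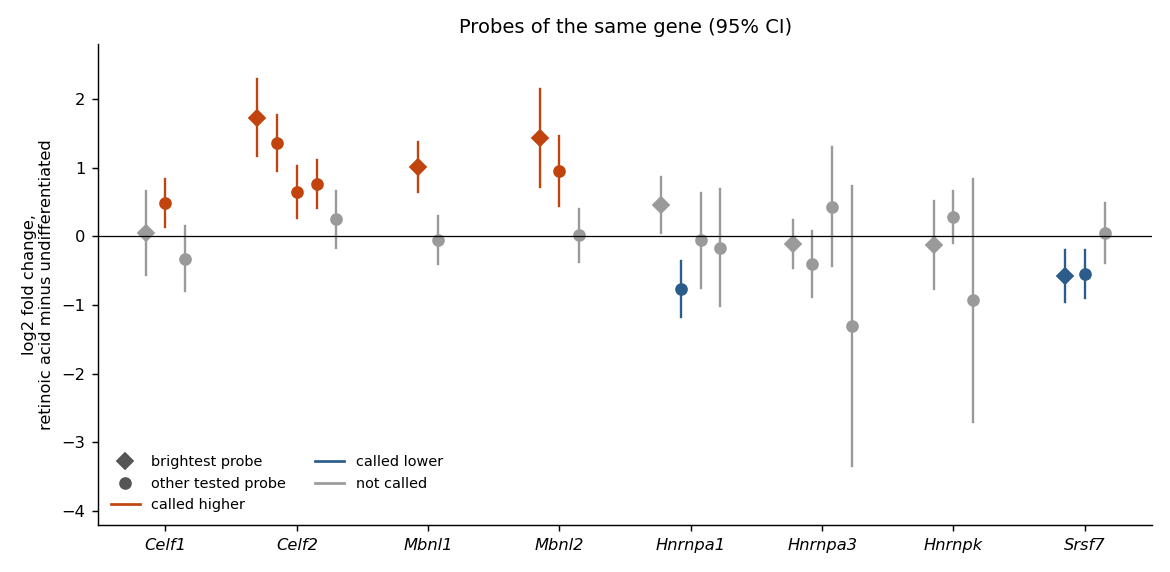
Log2 differences, retinoic acid minus undifferentiated, of every tested probe of 8 genes (vertical axis, with 95% intervals), with a diamond for the brightest probe and circles for the others. Orange and blue mark probes called higher and lower and grey the rest. Within Hnrnpa1 the diamond lies at 0.46 and the called probe at -0.77, and the Celf2 probe at 0.77 entered the fit through retinoic acid arrays alone.

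Probes of one gene often gave different values. Of 47 genes with more than 1 tested probe, 27 had all probes of one sign and 20 had both signs, with a median gap of 0.37 between the highest and lowest. In 6 genes the gap was over 1: Hnrnpa3 at 1.73, then Celf2, Mbnl2, Hnrnpa1, Hnrnpk and Mbnl1. The 4 probes of Hnrnpa3 gave -0.11, -0.41, 0.43 and -1.30, none of which passed, and the last of them ran from 8.51 to 10.13 in retinoic acid samples and from 9.14 to 12.84 in undifferentiated samples. Hnrnpk gave -0.12, 0.28 and -0.93 by its 3 probes. Called second brightest probes were those of Celf1, Celf2 and Mbnl2 (higher) and of Srsf7 and Hnrnpa1 (lower).

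A wide spread within groups was common among these probes. The SD over 3 samples was above 0.5 for 34 of 147 probes in undifferentiated cells (23.1%, against 14.8% of all tested probes) and for 21 in retinoic acid cells (14.3% against 6.46%). It was above 0.5 in both groups for 14 probes, 9.52% against 3.22%, a description that was not tested. Srsf5, an SR protein picked out after its values were seen, measured 10.96, 9.35 and 10.90 in retinoic acid samples and 10.50, 9.94 and 12.38 in undifferentiated samples. In 22 of the 34 probes undifferentiated replicate 2 was lowest and replicate 3 highest, against 1392 of 3937 such probes over the whole array. In 11 of the 14 the second replicate was lowest in both groups, against 506 of 855 over the whole array. The arrays of undifferentiated replicate 3 had median intensities of 67.0 and 67.3 before normalization and those of undifferentiated replicate 2 had 37.4 and 43.1, and the part of this in the spread was not tested. Other medians ran up to 96.6.

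**Figure D4:**
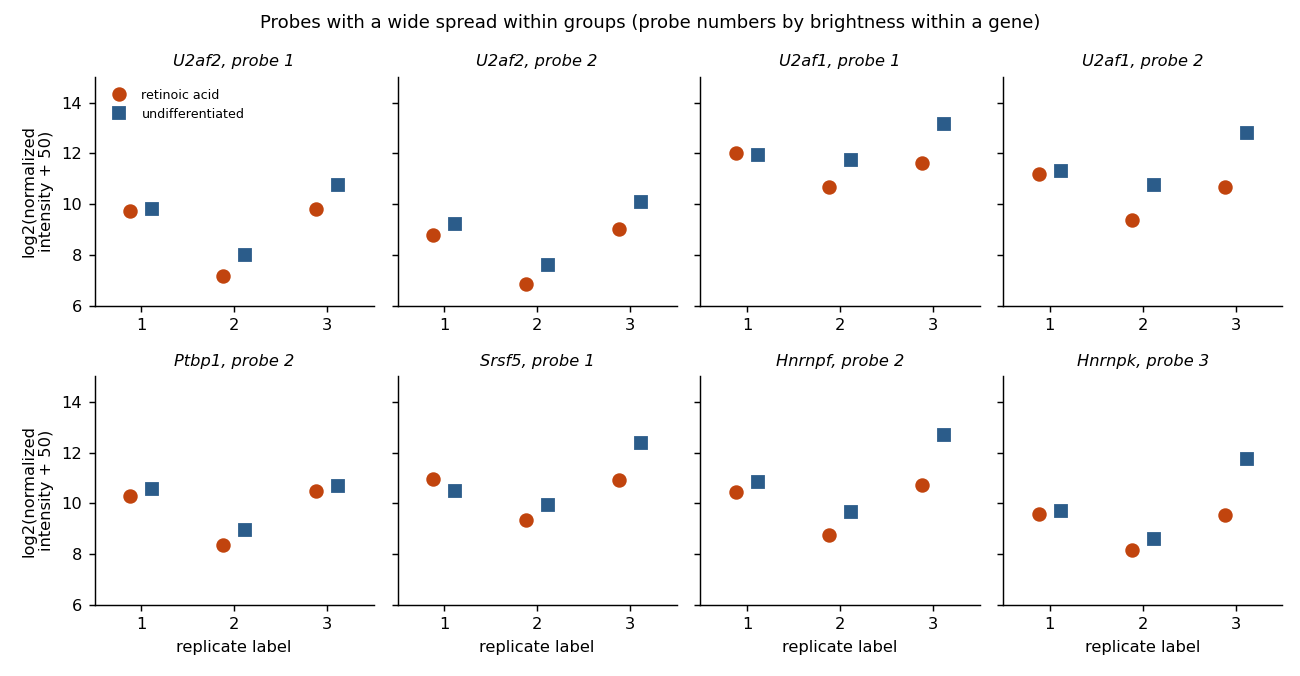
Log2 levels (intensity plus 50, vertical axis) by replicate label (horizontal axis) at 8 probes of U2af2, U2af1, Ptbp1, Srsf5, Hnrnpf and Hnrnpk, chosen after their values were seen, with retinoic acid as circles and undifferentiated as squares. Replicate 2 is the lowest of its group at each probe drawn. The labels do not say whether samples of the same number were handled together.

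The medians of most role classes moved with the scaling, and that of the hnRNPs changed sign. Under quantile normalization the median difference of the 68 genes was -0.03 and that of all genes 0.0036. Scaling each array to its 75th percentile gave -0.36 for the 68 genes and -0.09 for all genes, and scaling to its median gave -0.33 and -0.06. The SR median was -0.10, -0.43 and -0.39, the SF3 median -0.03, -0.21 and -0.17, and the U2AF median -0.73, -0.92 and -0.89 under quantile, 75th percentile and median scaling. The Prpf median (-0.50, -0.56 and -0.53) and that of the tissue-regulated regulators (0.53, 0.49 and 0.51) moved by less than 0.1. Calls among the 68 genes were 7 higher and 2 lower with quantiles, 5 and 9 at the 75th percentile, and 5 and 8 at the median. The shares of all genes called higher and lower at the 75th percentile and the median are not given here. The counts of the 68 genes under those scalings therefore cannot be set against all genes. The higher share of all calls was 55.0%, 46.6% and 49.9%. The added falls at the 75th percentile were Hnrnpf, Hnrnpu, Srsf6, Sf3a3, Sf3b4, Prpf4 and Prpf6, between -0.61 and -0.86, and all but Sf3a3 also passed with median scaling.

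**Figure D5:**
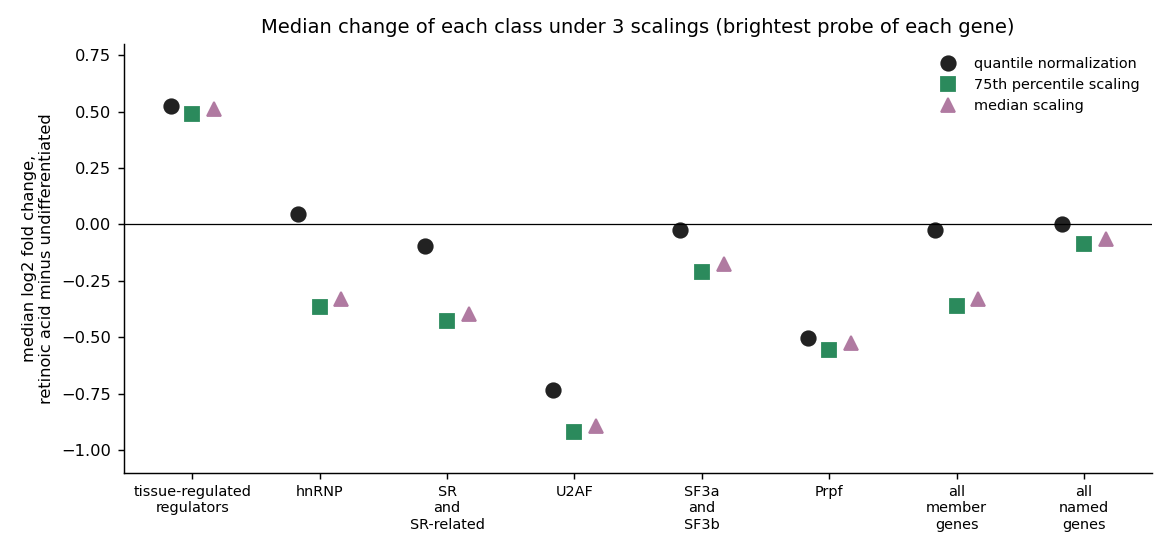
Median log2 difference, retinoic acid minus undifferentiated, of each role class and of all genes under 3 scalings of the arrays. The hnRNP median is 0.05 with quantiles and -0.37 at the 75th percentile, while the tissue-regulated regulators stay between 0.49 and 0.53.

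Other genes of the splicing pathway give the setting. Over all genes 17.6% were higher and 12.3% lower, with a median of 0.0036. Of 155 tested genes in 7 lists 7 were higher and 13 lower (12.9% in either direction, against 30.0% of all genes), with a median of -0.14. Without retinoic acid replicate 1 they were 3 and 7, without retinoic acid replicate 3 they were 3 and 5, without undifferentiated replicate 1 they were 6 and 7, and without undifferentiated replicate 2 they were 11 and 19. All 28 core snRNP and LSm genes gave 0 calls by limma (and 0 at an unadjusted p under 0.05), and so did 7 tested SR protein kinases. Differences below 0 numbered 7622 of 15325 over all genes, and all 24 among the Prp19 complex and catalytic step genes (median -0.28). Of these 24 genes 0 were higher and 5 lower (20.8%). Among them Cwc27, a cyclophilin of the spliceosome, was lower by -1.15 (adjusted p = 0.00515), and Dhx16, known in yeast as the helicase Prp2 that readies the first step, by -0.99 (adjusted p = 0.0024). Of the 3' splice site partners 2 of 18 were lower, Rbm25 at -0.94 and U2surp at -0.78, and of the 11 exon junction genes 1, Magohb at -1.16. Among the SR-like activators Scaf11 was higher by 0.58 and Tra2a lower by -0.68. Each of these last 5 calls was lost without 4 or 5 of the 6 samples in turn, where the adjusted p lay between 0.0517 and 0.151.

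The remaining list, other RNA-binding regulators, held most of the rises of the 7 lists. Of 47 tested 6 were higher and 4 lower (21.3%, where 30.0% of all genes passed in either direction). Rbms1, which binds single-stranded DNA and RNA, measured 13.48, 13.65 and 13.58 in retinoic acid samples against 10.57, 11.09 and 10.97 in undifferentiated samples (difference 2.69, adjusted p = 7.48e-05). Rbmx, the X-linked hnRNP G, measured 10.43, 10.21 and 10.59 in retinoic acid samples against 8.61, 8.06 and 8.17 in undifferentiated samples (difference 2.13, adjusted p = 0.000301). Rbm47 was lower by -1.83 and Elavl3, a neuronal Hu protein that also stands in the neuron marker list, by -1.61.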

How the data were processed

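Per the labels' protocols, the RNA went through a single round of amplification before Cy3 labelling. The deposited scanner tables give a net mean intensity per spot, linear and, per the file headers, with the local background already taken off. R 2.15.0 and limma are the tools in the submitters' processing notes, and the authors' own intensity table of 41173 probes, which correlates at 1 with the quantile-normalized values, served as an alternative. No source used here gives a genome build for the array.

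With limma 3.58.1 in R 4.3.3, the 41174 probes were quantile-normalized over 12 arrays, 50 was added, log2 was taken and each sample's 2 technical arrays were averaged. A probe was above background on an array when it exceeded the 95th percentile of 27 negative control spots, and entered the fit if it did so on 4 or more of the 6 arrays of a group. Each of the 26587 such probes was fitted with lmFit and eBayes (two-sided, no covariates), and p-values were adjusted by Benjamini-Hochberg over all of them. All adjusted p-values in the text come from this fit unless another setting is named. Symbols and promoters came from the RefSeq tables of GRCm38.p6.

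Technical pairs correlated at 0.990 to 0.998 across probes, samples of one group at 0.956 to 0.991 and samples of different groups at 0.899 to 0.931. The file of undifferentiated replicate 2, technical array 2, names the other technical array in its header. The fit was tested on simulated data, where it recovered 0.6%, 21.2% and 77.8% of changes of 0.5, 1 and 2 log2 units. Only 200 of 26587 probes were changed there, far fewer than passed here, so these shares need not hold for these data. A gene that did not pass may still differ. The number of arrays limits the precision.

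The members, lists and rules were chosen with earlier results of these data known. Genes named are up to 5 called rises and falls of each role class, a set of 17 regulators and core factors, genes whose probes differ by over 1, and up to 2 called rises and falls of each other list. Genes named outside this rule are said to be so or stand as the members of a count.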

Additional observations from a re-analysis of the deposited data

How the results depend on the processing

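Of 480 values of named splicing genes, each gene under 20 or 21 alternatives, 433 kept their side of the limit, 40 lost a call and 7 gained one. A reversal was counted only where a call stood in either setting, and there were 0. Uncalled genes could change sign and still count as kept, as U2af2 did (0.25 without retinoic acid replicate 2). Of 149 values over whole sets 113 were kept. Scaling to the 75th percentile gave 9 lower genes, a median of -0.36 and 26 lower among the other splicing genes, and median scaling gave 8 lower and -0.33. The called shares of all genes under those scalings are not given beside these counts. Requiring all 12 arrays above background gave 4 higher. Adding 1 or 10 in place of 50 gave 0 lower genes by limma (3 and 4 at an unadjusted p under 0.05), and technical array 1 alone gave 1 lower. The 12 arrays with sample as a random block gave 5 lower genes and 11 higher among the other splicing genes. At an adjusted p under 0.01 there were 2121 probes higher and 1432 lower, 3 member genes higher and 0 lower (2 lower at 0.05; 8 at an unadjusted p under 0.05), and 3 higher and 5 lower other splicing genes. With the replicate number as a block, 6 genes were higher and 2 lower, 7 and 12 of the other splicing genes, and 3624 and 3045 of all probes. With that block the second U2af2 probe passed (-0.75 ± 0.18, adjusted p = 0.0344, against an SE of 0.73 without it), the main U2af2 probe gave -0.62 ± 0.22 (adjusted p = 0.0939), and Hnrnpul1 lost its call. The labels do not say whether samples of the same number were handled together. Deviations of same-numbered samples correlated at -0.05, 0.28 and 0.14, and not every sample correlated best with its own number. With so few samples a group, these correlations cannot show whether the samples are paired. Second brightest probes, with the single probe of a gene that has no other, gave 6 higher and 3 lower; single-probe genes gave 4 of these calls (Khdrbs3, Nova1, Srsf12 and Prpf3). Leaving out 1 sample in turn gave 2365 to 4054 probes higher and 1608 to 3648 lower, 4 to 7 member genes higher and 0 to 3 lower, medians of -0.063 to 0.092, and 3 to 11 higher and 5 to 19 lower other splicing genes. The cause of these shifts was not tested.

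Celf2, Mbnl1, Khdrbs3 and Srsf12 passed without any 1 sample, at differences of 1.57 to 1.96, 0.92 to 1.06, 0.90 to 1.15 and 0.86 to 1.18. Without the array whose header is in doubt, the log2 difference of Ptbp2 was 0.57. That alternative was chosen after seeing the data. Dim genes such as Nova1, Mbnl3 and Srsf12 are limited by signal over background.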
